A study of Saccharomyces cerevisiae with 12 samples.

Results

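The transcript levels of yeast cells that lack both Top1p and Top2p were compared, gene by gene, with the levels predicted by adding up the effects of losing each enzyme alone. All 5449 genes measured on the arrays were used, and the departure of a gene is the difference *top1Δtop2ts* minus *top1Δ* minus *top2ts* plus wild-type of its log2 signals. A departure of 0 means that the fold change in the double mutant is the product of the fold changes in the single mutants. A negative departure means that the double mutant lay below that product and a positive one that it lay above it. The comparison addresses which transcripts depend on either enzyme so that the other covers for its loss, and which are already changed to the full extent when 1 enzyme is missing.

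Top1p is a type IB topoisomerase that nicks a single DNA strand, and Top2p is a type II enzyme that passes one duplex through another. Both relax the positive supercoils that build up ahead of a moving RNA polymerase and the negative ones behind it, so that in yeast either can serve transcription when the other is missing. Only Top2p can separate the linked chromosomes of a dividing cell, which makes *TOP2* essential while *TOP1* can be deleted.

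The strains were *top1Δtop2ts*, *top1Δ*, *top2ts* and the isogenic wild-type, all W303a derivatives of mating type a, with 3 arrays each from independent experiments. *top1Δ* lacks the *TOP1* gene, and *top2ts* carries a temperature-sensitive allele whose product is inactivated by heat. All 4 strains, wild-type included, were grown in rich medium, held in G1 by the mating pheromone α-factor and then kept for 90 min at 37°C with the pheromone still present, so every level describes heated and arrested cells. Top2p activity left in *top2ts* was not measured on the arrays, and whether a strain was 1 isolate is not given in the sources used here.

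Total RNA was taken from equal cell numbers with poly-A RNAs of *Bacillus subtilis* genes added as spike-ins just before extraction, and each array was scaled to these spike-ins, so that levels stand per cell as far as the spike-ins hold. The mean spike-in level ran from 8.46 to 9.59 on the log2 scale over the 12 arrays and was lower in the 4 arrays of replicate 2. The spike-ins' own departure averaged 0.03 ± 0.24 (SD over replicate numbers, n = 3), and the trp spike-ins, whose signal nowhere passed that of the blank Tag probe sets, gave -0.04, 1.26 and -2.68 in replicates 1, 2 and 3. Counts are therefore given also without trp, an alternative chosen after the data had been seen. The deleted gene bore out the strain labels, since *TOP1* gave 7.78, 0.285 and 0.631 in *top1Δtop2ts* and 0.662, 1.14 and 0.979 in *top1Δ*, against 1092, 1313 and 847 in *top2ts* and 983, 1019 and 1098 in wild-type. The a-specific marker genes fit the labelled mating type. All 7 measured, among them *STE2* for the α-factor receptor, were above the Tag level of 17.6 in every strain, with summed signals of 52109 to 55827 in *top1Δtop2ts*, 49311 to 64234 in *top1Δ*, 58309 to 72422 in *top2ts* and 52591 to 75392 in wild-type, and 0 of 7 departed from additivity.

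Departures were common and fell on both sides. By limma, with replicate numbers as blocks in the fit, 1180 genes (21.7% of those tested) departed at an adjusted p below 0.05, 449 of them (8.24%) above the additive expectation and 731 (13.4%) below it. The departure was at least 2-fold for 290 genes above and 291 below, and the smallest departure that passed was 0.61 on the log2 scale. Of the 1180 genes, 1171 had the same sign of departure in all 3 replicate numbers and 1145 were above the Tag level in all strains. The split depended on the scaling. The genes above made up 38.1% of the calls, against 48.5% with quantile-normalized arrays and 22.3% when arrays were scaled to the median of the spike-ins, and 335 genes above and 609 below kept their call under all 6 scalings. Without trp the number below was 1103. The lower count also rested on single arrays. It was 423 without *top1Δ* replicate 2, 405 without *top1Δ* replicate 3, 402 without *top2ts* replicate 1, 461 without *top2ts* replicate 2 and 467 without wild-type replicate 1. With all 4 arrays of 1 replicate number left out it was 340 without replicate 1, 209 without replicate 2 and 459 without replicate 3, while the higher count was 281, 441 and 249. Without replicate 2 the genes above thus outnumbered those below.

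**Figure D1:**
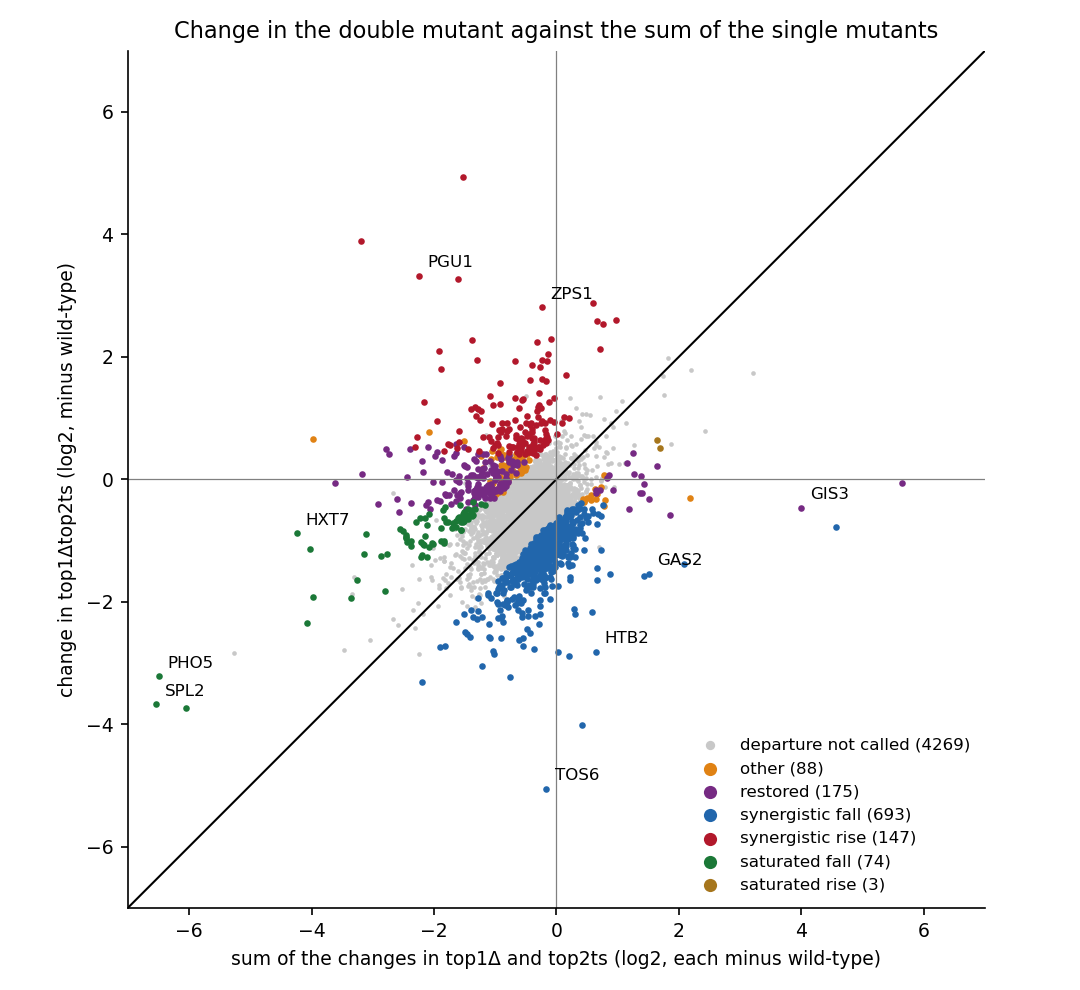
Change of each gene in *top1Δtop2ts* against wild-type (y axis, log2) plotted over the sum of its changes in *top1Δ* and *top2ts* (x axis, log2), coloured by class, with additivity as the diagonal. Of 5449 genes, 449 passed the test above the diagonal and 731 below it, and 4 genes lie outside the axes.

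Over all genes the double mutant held less RNA than the single mutants predicted, though replicates differed in how much less. The summed signal of *top1Δtop2ts* was 63.0%, 62.6% and 62.0% of that of wild-type in replicates 1, 2 and 3, whereas the product of the single mutants predicted 78.3%, 89.8% and 65.0%. Observed over expected was thus 80.4%, 69.8% and 95.3%, below 100% in 3 of 3 replicates, with a mean of 81.8% ± 12.8 (SD, n = 3). Without trp these values were 79.6%, 78.3% and 71.7%. The double mutant itself varied little, while *top1Δ* held 80.9%, 96.3% and 84.1% and *top2ts* 96.8%, 93.2% and 77.3% of the wild-type sum. The median departure over all genes was -0.20, with -0.12, -0.52 and 0.07 in replicates 1, 2 and 3. Without trp the replicate medians were -0.14, -0.36 and -0.34, so that the positive sign in replicate 3 was not kept. With 3 replicates no exact sign-flip p below 0.25 is possible. The departures of single genes are given without taking out this shift. In RNA of whole cultures, fewer cells with a transcript and less of it per cell cannot be told apart.

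The genes that departed were sorted by what else had changed, with each mutant compared with wild-type in the same fit. Of all genes tested, 3.87% rose and 66% fell in *top1Δtop2ts* (69.8% in either direction), 0.385% rose and 13% fell in *top1Δ* (13.4%), and 0.973% rose and 6.92% fell in *top2ts* (7.89%). The largest class held 693 synergistic falls, genes that fell in the double mutant by more than the sum, and 614 of these passed the test in neither single mutant. Their median log2 change was -1.20 in *top1Δtop2ts*, -0.15 in *top1Δ* and -0.10 in *top2ts*, all against wild-type. A further 147 genes were synergistic rises, with medians of 0.80 in *top1Δtop2ts*, -0.34 in *top1Δ* and -0.23 in *top2ts*, and 104 of them passed in neither single mutant. Saturated falls, which fell in at least 1 single mutant and in the double mutant but by less than the sum, numbered 74, with medians of -0.81 in *top1Δtop2ts*, -1.06 in *top1Δ* and -0.87 in *top2ts*. Another 175 genes changed in a single mutant, but their level in the double mutant did not pass the test against wild-type, and these are called restored, 154 with a positive and 21 with a negative departure. There were 3 saturated rises and 88 genes of other patterns. The comparisons behind these classes share arrays, wild-type among them, so their sizes are descriptions.

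**Figure D2:**
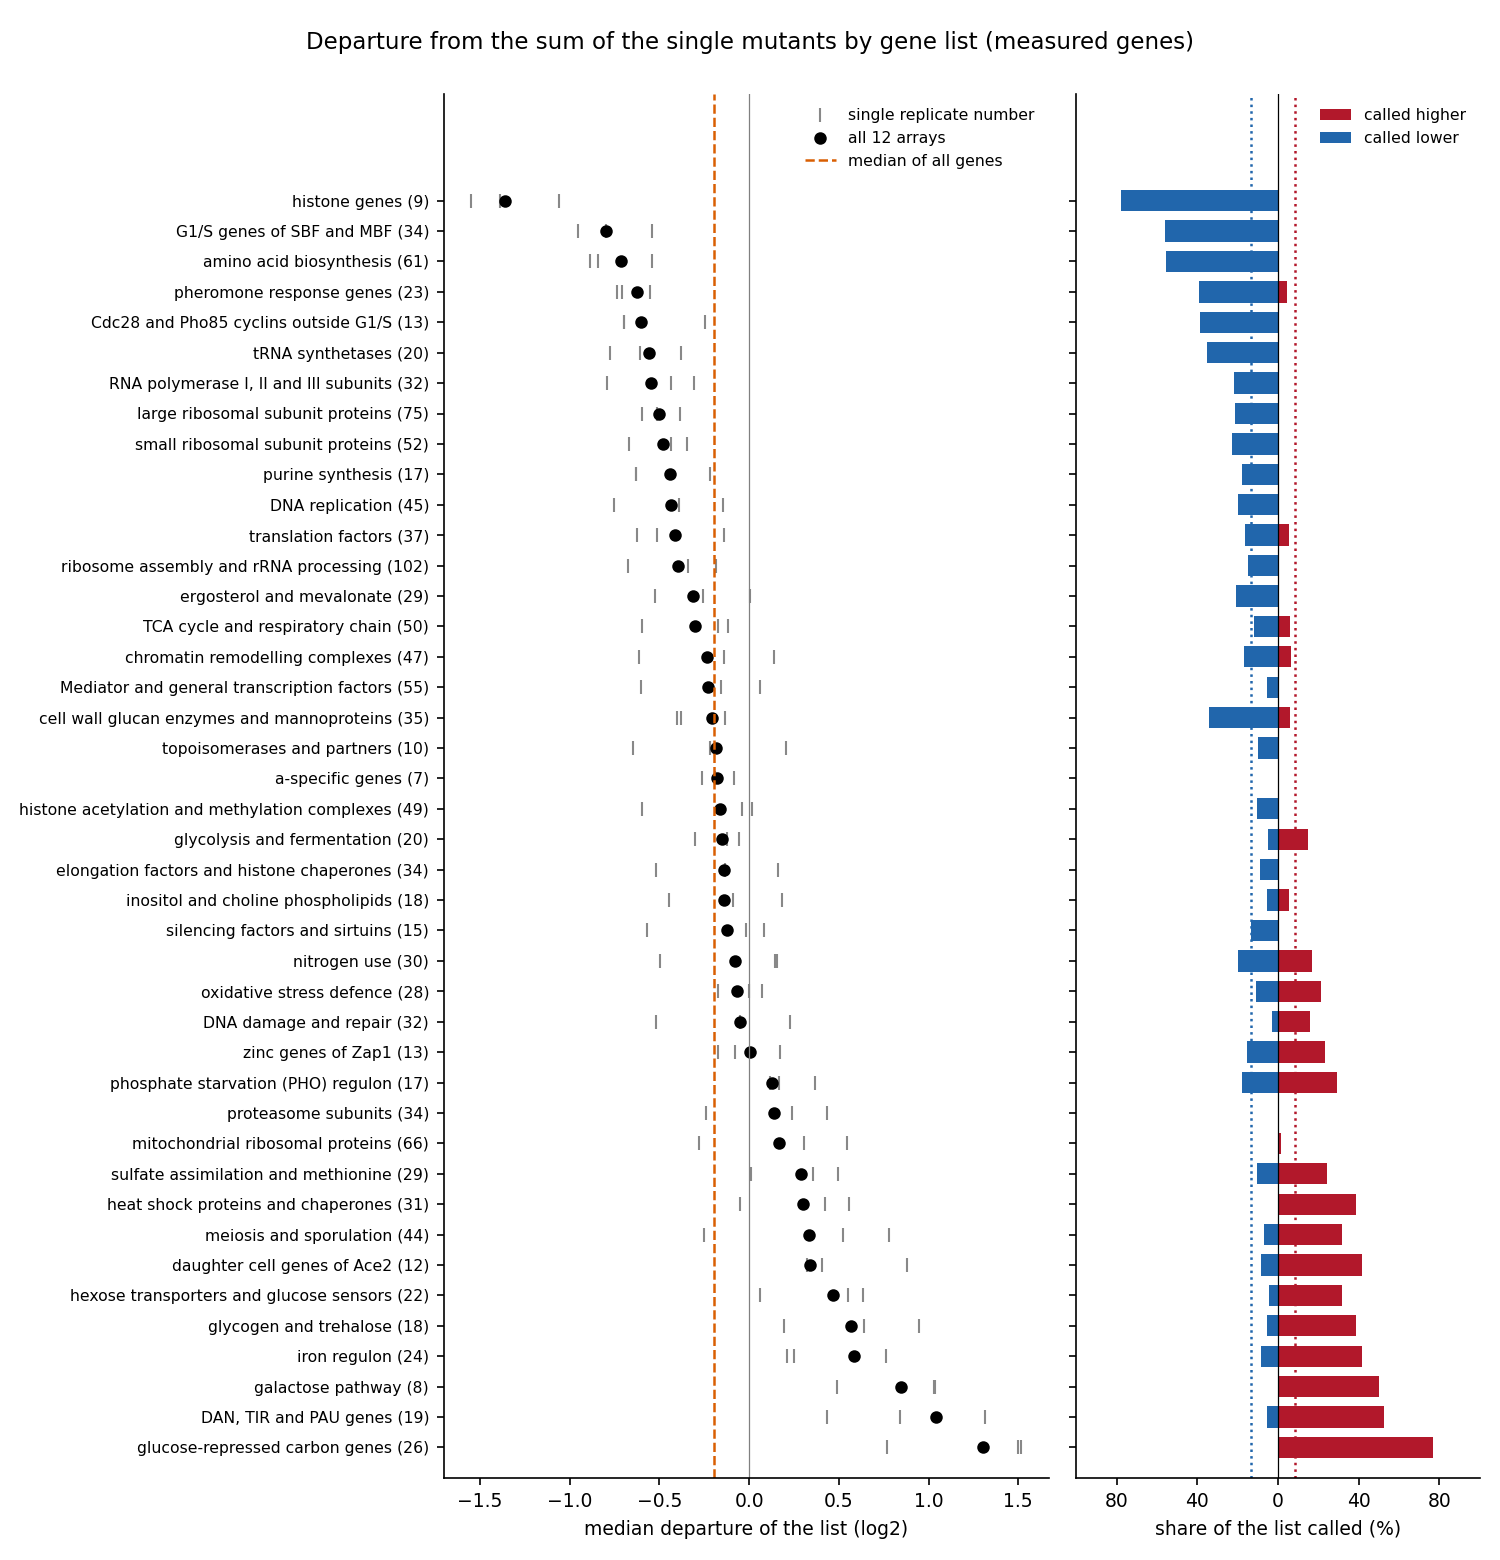
Median departure of gene lists (left, log2, dots for all arrays, ticks for the 3 replicate numbers, dashed line for the median of all genes) and the percentage of each list that passed the test above (red) or below (blue) the additive expectation, with dotted lines for all genes. Histone, G1/S and amino acid genes departed downward, and glucose-repressed and *DAN*, *TIR* and *PAU* genes upward.

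Synergistic falls were frequent among genes of the G1 to S transition. SBF and MBF are the transcription factors that open the cell cycle at Start. Of the 34 measured genes driven by them 19 (55.9%) departed below additivity and 0 above, beside 13.4% and 8.24% of all genes. The median departure was -0.80, and 18 of the 19 were synergistic falls, a class of 12.7% of all genes. The count below was 13 without replicate 2 and 13 without the replicate block. *TOS6*, a cell wall protein gene of this set, had signals of 91.8, 62.2 and 70.7 in *top1Δtop2ts*, 2109, 2149 and 2028 in *top1Δ* and 3622, 2299 and 2019.9 in *top2ts*, against 2855, 1905 and 2716 in wild-type. Its 3 double mutant arrays lay far below the other 9, which overlapped. The level in *top1Δtop2ts* was 0.0338 of the 2187 expected, a departure of -4.89 ± 0.26 (SE, limma adjusted p = 1.11e-09). *PCL1*, a G1 cyclin of the kinase Pho85p, gave 14.7, 11.8 and 21.8 in *top1Δtop2ts*, at or under the Tag level on average, and had means of 323 in *top1Δ*, 259.5 in *top2ts* and 251 in wild-type. It was thus at least 17.6-fold below the expected level, with the dim strain set to the Tag level.

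Some genes that act in S phase fell as well. *MCD1*, a subunit of the cohesin ring, gave 95.1, 53.5 and 77.3 in *top1Δtop2ts*, 468, 454 and 379 in *top1Δ* and 429, 234 and 294 in *top2ts*, against 430.5, 469 and 455 in wild-type, a departure of -2.02 ± 0.28 (limma adjusted p = 8.33e-05). The double mutant lay below every other array, and neither single mutant passed the test against wild-type. *RNR1*, the large subunit of ribonucleotide reductase, departed by -1.76 ± 0.29 and *POL30*, the sliding clamp of DNA polymerases, by -1.26 ± 0.23, with changes against wild-type of -1.74 and -1.23 in *top1Δtop2ts*. Of the G1 cyclins *CLN2* passed the test and *CLN1* did not. *CLN2* departed by -1.22 ± 0.33 (limma adjusted p = 0.0141), with signals of 271, 389 and 521 in *top1Δtop2ts* and 1479, 1819.6 and 1461 in wild-type. *CLN1* fell in each mutant, by 1.75 on the log2 scale in *top1Δtop2ts*, 0.79 in *top1Δ* and 0.66 in *top2ts*, and its departure of -0.30 ± 0.27 did not pass (adjusted p = 0.44, 95% interval -0.88 to 0.27). Of 45 DNA replication genes 9 (20%) departed below and 0 above, with a median of -0.43, beside 13.4% of all genes below. This count rested on single arrays, since it was 2 without *top1Δ* replicate 2 and 14 without *top1Δ* replicate 1, and it was 2 without all of replicate 2.

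Histones package DNA into nucleosomes. Of the 9 histone genes measured 7 (77.8%) departed, all below additivity and all as synergistic falls, beside 13.4% of all genes below. The count was also 7 with arrays of equal median, without trp, without replicate 2 and without the block. *HTB2*, 1 of 2 genes for histone H2B, had signals of 378, 361 and 279 in *top1Δtop2ts*, 2964, 2374 and 2349 in *top1Δ* and 5998, 2240.3 and 3111 in *top2ts*, against 3101, 1579 and 2720.4 in wild-type. The *top1Δtop2ts* arrays did not overlap with any other strain, whereas those of the 3 other strains overlapped. Its departure was -3.47 ± 0.32 (limma adjusted p = 8.16e-07), and that of *HTA2*, which encodes histone H2A, was -2.85 ± 0.24. *HHT2* for histone H3 departed by -1.85 ± 0.25, *HTA1* by -1.45 ± 0.23, *HHO1* for the linker histone by -1.36 ± 0.27, *HTB1* by -1.25 ± 0.23 and *HHF1* for histone H4 by -1.17 ± 0.23. *HHT1*, the other gene for histone H3, and *HTZ1* for the variant H2A.Z had departures of -0.32 and -0.59 that did not pass. The copies of each core histone gene are close in sequence, and probes may not part them fully.

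Genes for making protein fell in the double mutant, and part of them fell by more than the sum. All 75 measured genes for large subunit ribosomal proteins and all 52 for the small subunit fell in *top1Δtop2ts*. In *top1Δ* 5 and 1 of them fell, and in *top2ts* 0. Of all genes 66% fell in *top1Δtop2ts*, 13% in *top1Δ* and 6.92% in *top2ts*. Below additivity were 16 of the 75 and 12 of the 52, with 0 above, and the median departures were -0.50 and -0.48. These shares of 21.3% and 23.1% stand beside 13.4% of all genes. Of the brightest of 5 equal groups of genes ordered by mean signal, 23.0% were below. The part of signal level in the ribosomal shares was not tested. The ribosomal counts below were 4 and 2 without replicate 2, and 30 and 14 without trp. *RPS22B*, 1 of 2 genes for the small subunit protein S22, gave 1428, 1153 and 949 in *top1Δtop2ts*, 4239.5, 7077 and 5558 in *top1Δ* and 8552, 7898 and 5592 in *top2ts*, against 7823, 7696 and 7385 in wild-type. It fell to well under every other array in all 3 double mutant samples and departed by -2.17 ± 0.28 (limma adjusted p = 4.12e-05). *RPS9A* and *RPS10B*, for the small subunit proteins S9 and S10, departed by -2.48 ± 0.26 and -1.11 ± 0.25. Of 102 genes for ribosome assembly 15 departed below, a share of 14.7% near that of all genes, and of 32 RNA polymerase subunit genes 7 (21.9%), with 0 above in both lists. These counts were 3 and 0 without replicate 2, and 26 and 14 without *top2ts* replicate 3. *SDO1*, which acts in the maturation of the large ribosomal subunit, departed by -2.51 ± 0.36 and *HRP1*, a factor of mRNA cleavage and export, by -2.74 ± 0.26.

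Genes of amino acid biosynthesis departed downward. Of 61 genes 34 (55.7%) were below additivity and 0 above, beside 13.4% and 8.24% of all genes. The median departure was -0.72, but the number below was 12 without replicate 2, 18 without replicate 1, 27 without the block and 43 without trp. *LYS2*, an enzyme of lysine synthesis, gave 2434, 2855 and 2121 in *top1Δtop2ts*, 5084, 4755 and 4782 in *top1Δ* and 8538, 7684 and 6075 in *top2ts*, against 6117, 4549 and 5620.1 in wild-type, a departure of -1.44 ± 0.24 (limma adjusted p = 0.000537). *GLT1*, the glutamate synthase, departed by -1.35 ± 0.24, with means of 2077 in *top1Δtop2ts*, 5888 in *top1Δ* and 5534 in *top2ts*, against 6141 in wild-type. In both genes neither single mutant passed the test against wild-type, and the double mutant lay below all other arrays. All 20 genes for tRNA synthetases, which load tRNAs with their amino acids, fell in *top1Δtop2ts*, beside 66% of all genes. The list had a median departure of -0.56 and 7 genes (35%) below additivity, among them *DED81* for asparagine at -0.90 ± 0.22. The count below was 1 without replicate 2, 2 without the block and 11 without *top2ts* replicate 3.

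Glucan enzymes and mannoproteins of the cell wall departed more often below additivity than above it. Of 35 such genes 12 (34.3%) were below and 2 (5.71%) above, beside 13.4% and 8.24% of all genes. The count below was 6 without replicate 2, 7 without replicate 1 and 9 without the block. *GAS2*, a glucan-modifying enzyme known from spore wall formation, gave 232, 238 and 199 in *top1Δtop2ts*, 1646, 2140.2 and 1558 in *top1Δ* and 846, 637 and 570.1 in *top2ts*, against 642, 623 and 679 in wild-type. It rose in *top1Δ*, by 1.45 on the log2 scale, and fell by 1.54 in *top1Δtop2ts*, both against wild-type, so that the loss of Top1p had opposite effects with and without active Top2p and the departure was -3.05 ± 0.25 (limma adjusted p = 3.17e-07). *SVS1* and *CSI2*, linked to the cell wall and to chitin synthesis, were synergistic falls at -2.05 ± 0.24 and -2.41 ± 0.29. Of 15 silencing factors and sirtuins 2 departed below and 0 above, a share of 13.3% near the 13.4% of all genes below. The 2 were *SIR2* for the silencing deacetylase at -0.77 ± 0.24 (limma adjusted p = 0.0318) and *SIR3* for its nucleosome-binding partner at -1.08 ± 0.26 (limma adjusted p = 0.00615). *SIR2* passed in 6 of 15 fits with arrays left out, and neither *SIR2* nor *SIR3* passed without replicate 2. Their mean signals were 324 for *SIR2* and 548 for *SIR3* in *top1Δtop2ts*, against 1202 and 1239.7 in wild-type. Silencing keeps the second copies of the mating type genes shut. Of the 4 α-specific genes 2, *MF(ALPHA)1* and the receptor gene *STE3*, were above additivity. Neither kept its call under all 6 scalings, and without replicate 3 the count was 1. The summed signal of the 4 was 1296 to 1659 in *top1Δtop2ts*, 755 to 958 in *top1Δ*, 787 to 1616 in *top2ts* and 1067 to 1148 in wild-type. None was at 0. *MF(ALPHA)1*, which encodes α-factor itself, averaged 115 in *top1Δtop2ts* and lay at or under the Tag level in *top1Δ* and wild-type. The part of silencing in these values was not tested.

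**Figure D3:**
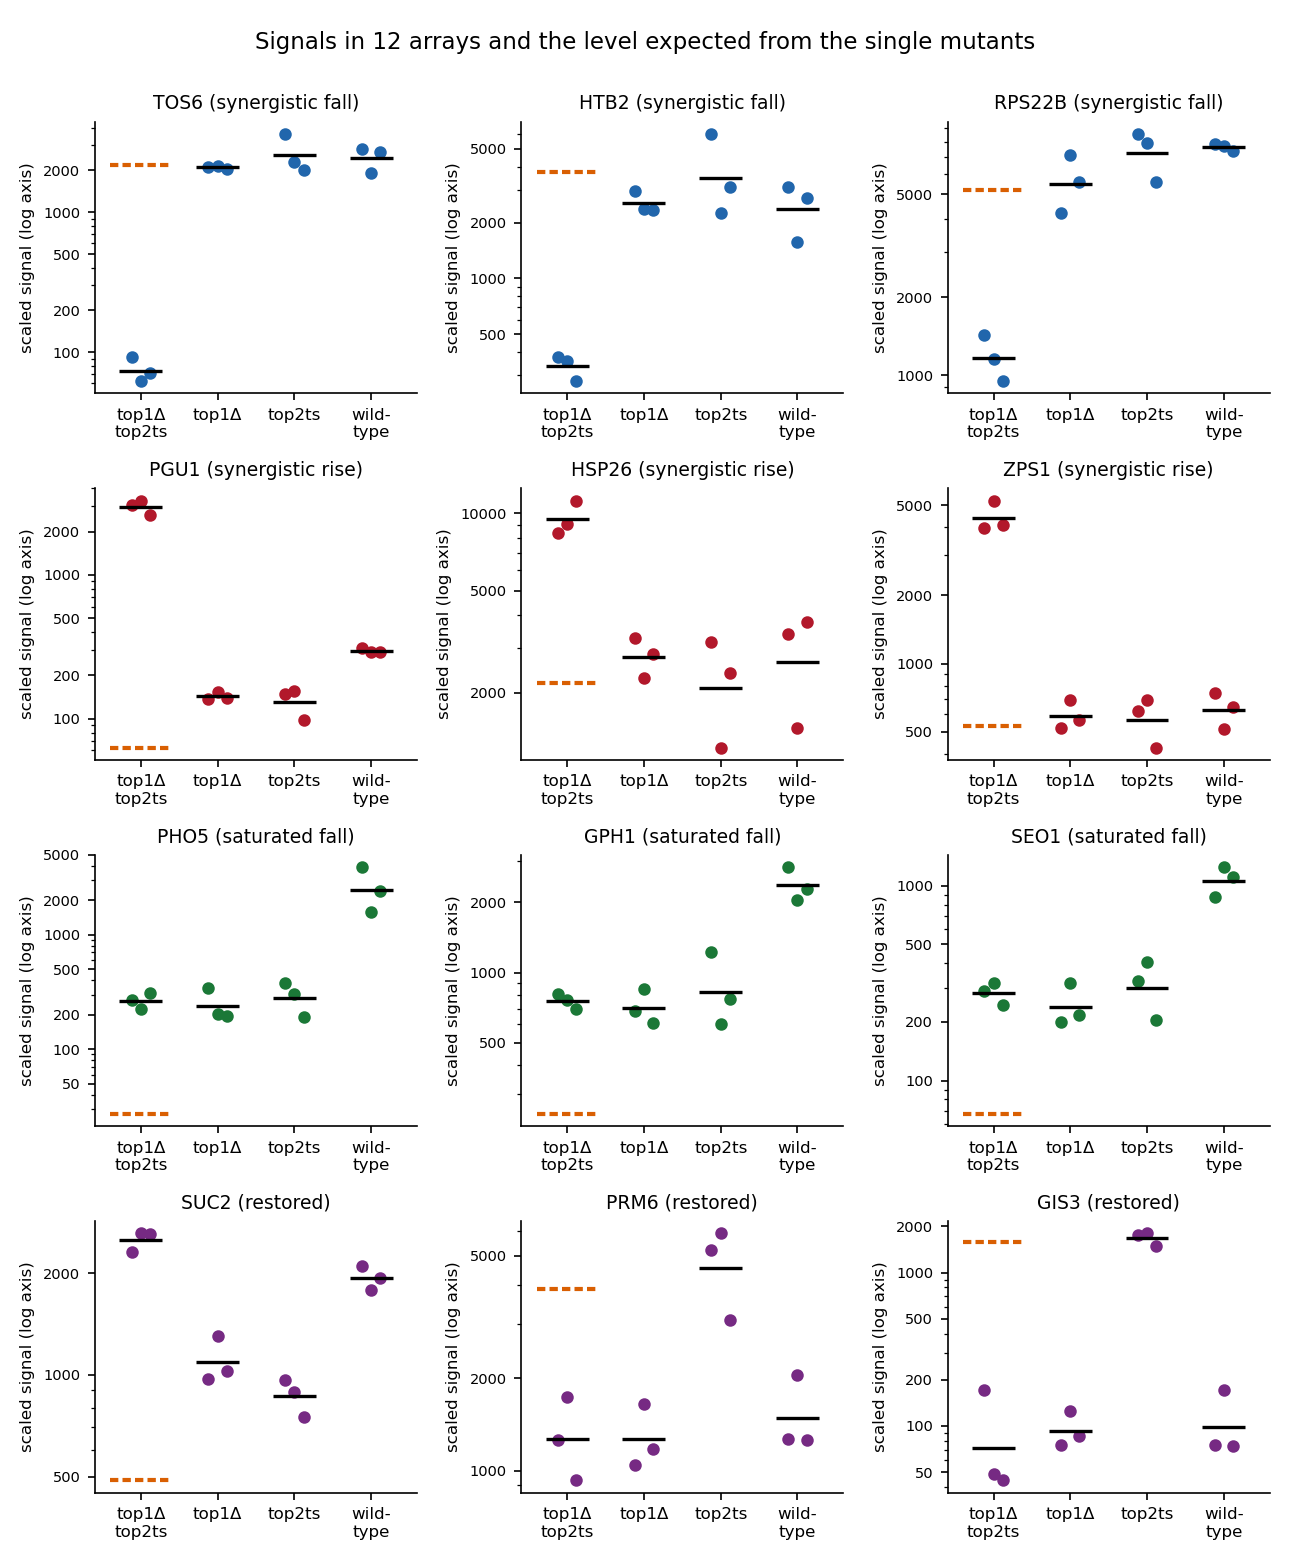
Spike-in scaled signal (log axis) of 12 genes on the 3 arrays of *top1Δtop2ts*, *top1Δ*, *top2ts* and wild-type, with black bars for geometric means and orange dashed lines for the level expected in *top1Δtop2ts* from the single mutants. *TOS6*, *HTB2* and *RPS22B* lie below the line, *PGU1*, *HSP26*, *ZPS1*, *PHO5*, *GPH1*, *SEO1* and *SUC2* above it, and *PRM6* and *GIS3*, which rose in *top2ts*, below it.

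The synergistic rises were led by genes that fell in each single mutant and rose only in the absence of both enzymes. *PGU1*, an enzyme that degrades pectin, gave 3090.2, 3296 and 2593 in *top1Δtop2ts*, 137, 153 and 139 in *top1Δ* and 149, 155 and 97.4 in *top2ts*, against 309.9, 289 and 293 in wild-type. Each single mutant lay below wild-type on every array and the double mutant above it, and the level was 47.3-fold the 62.9 expected, a departure of 5.56 ± 0.24 (limma adjusted p = 4.96e-11). *POT1*, the thiolase of peroxisomal fatty acid breakdown, gave 302, 291 and 266 in *top1Δtop2ts*, 29.9, 49.4 and 30.1 in *top1Δ* and 44.7, 34.8 and 23.5 in *top2ts*, against 61.2, 73.7 and 65.8 in wild-type and departed by 4.02 ± 0.29. *HPF1*, a mannoprotein of the cell wall, followed the same course with means of 8002 in *top1Δtop2ts*, 1105 in *top1Δ* and 1298 in *top2ts*, against 2303 in wild-type, and departed by 3.68 ± 0.35.

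This crossing was a feature of several genes. For 93 genes the loss of Top1p changed the level one way where Top2p was active and the other way where it was not, with both changes past the test, and for 90 of these it lowered the level in the presence of active Top2p and raised it in *top2ts*. The same held for the loss of Top2p activity at 82 genes, 70 of them lowered where Top1p was present and raised in *top1Δ*, and 40 genes were in both groups. Both changes of a pair enter the departure, so that these counts describe the genes and are no separate test.

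Some other synergistic rises had levels in the single mutants close to wild-type. Of 31 heat shock proteins and chaperones 12 (38.7%) departed above additivity and 0 below, beside 8.24% and 13.4% of all genes. Of these 12, 6 were synergistic rises, 5 were restored and 1 was a saturated fall, and the count above was 7 without replicate 3. The list as a whole did not rise, since 7 of its genes rose and 12 fell in *top1Δtop2ts* against wild-type. All strains had been heated alike. *HSP26*, a small heat shock protein that binds unfolded proteins, gave 8335, 9042 and 11196 in *top1Δtop2ts*, 3279, 2283 and 2822 in *top1Δ* and 3157, 1225 and 2383 in *top2ts*, against 3387, 1454 and 3761 in wild-type. The 3 double mutant arrays lay above the other 9, and the departure was 2.11 ± 0.33 (limma adjusted p = 0.00026). *SSA3* and *SSA4*, chaperones of the Hsp70 family with close sequences, departed by 2.08 ± 0.22 and 1.87 ± 0.25. *HSP12*, a membrane-associated stress protein, rose in *top1Δtop2ts* by 1.69 and in *top1Δ* by 0.96 on the log2 scale, and its departure of -0.05 ± 0.35 did not pass (95% interval -0.78 to 0.68). *ZPS1*, a surface protein of the zinc regulon, gave 3967, 5239 and 4092 in *top1Δtop2ts*, 520.3, 692 and 561 in *top1Δ* and 616, 692 and 426 in *top2ts*, against 742, 515 and 644 in wild-type, a departure of 3.05 ± 0.28. It was not typical of its list, in which 3 of 13 genes were above and 2 below, with 2 and 0 without replicate 2.

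The *DAN*, *TIR* and *PAU* families encode mannoproteins that are made when oxygen is short or cells are cold. Of 19 measured, 10 (52.6%) were above additivity and 1 (5.26%) below, beside 8.24% and 13.4% of all genes. The median was 1.04, and 7 were synergistic rises, a class of 2.70% of all genes. *DAN1* averaged 342 in *top1Δtop2ts* and 23.0 in wild-type and lay at or under the Tag level in both single mutants, so that it was at least 25.2-fold above the expected level. *TIR1* gave 1322, 1716 and 1255 in *top1Δtop2ts*, 617, 532 and 483 in *top1Δ* and 936, 565 and 451 in *top2ts*, against 1194, 648 and 870.0 in wild-type and departed by 1.89 ± 0.30. Its double mutant arrays were all above the other 9. *PAU* genes are near-identical copies, and their values may be mixed.

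Saturated falls had fallen in a single mutant and fell in the double mutant by less than the sum. Of the 74 saturated falls 53 had fallen in both single mutants, 17 in *top1Δ* only and 4 in *top2ts* only, and in 48 neither difference between the double mutant and a single mutant passed the test. Of all genes, 8.3% were higher and 46.9% lower in *top1Δtop2ts* than in *top1Δ* (55.2% in either direction), and 6.74% higher and 46.5% lower than in *top2ts* (53.2%). The phosphate regulon, which is switched on by the factor Pho4p when phosphate is scarce, held 4 saturated falls among 17 genes. Of all genes 1.36% were saturated falls. *PHO5*, the secreted acid phosphatase, gave 267, 226 and 307 in *top1Δtop2ts*, 341, 203 and 194 in *top1Δ* and 382, 301 and 191 in *top2ts*, against 3904, 1582 and 2392 in wild-type. The mutant strains overlapped and all lay below wild-type. *top1Δtop2ts* differed from *top1Δ* by 0.15 (95% interval -0.33 to 0.64) and from *top2ts* by -0.08 (-0.57 to 0.41), while additivity predicted a signal of 27.2, and the departure was 3.29 ± 0.33 (limma adjusted p = 2.21e-06). Such an interval leaves room for differences of up to about its bounds.

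The phosphate genes did not act alike. For *PHO89*, a phosphate transporter that uses sodium, and *SPL2*, which curbs low-affinity phosphate uptake, the double mutant was lower than *top1Δ*, by 1.05 and 1.15 on the log2 scale, but not detectably different from *top2ts*, with differences of -0.38 (-0.77 to 0.01) and 0.32 (-0.21 to 0.85). *PHO11*, another acid phosphatase with a near-identical copy, departed by 1.72 ± 0.26. *PHO84*, the high-affinity phosphate transporter, gave 1368, 1389 and 2321 in *top1Δtop2ts*, 6208, 7452 and 5585 in *top1Δ* and 4921, 6381 and 4541 in *top2ts*, against 9877, 13261 and 9683 in wild-type. Here the double mutant was below both single mutants, which were below wild-type, and the departure was -0.91 ± 0.29 (limma adjusted p = 0.0352), though it passed under 4 of 6 scalings and in 5 of 15 fits with arrays left out. *VTC3*, a subunit of the vacuolar polyphosphate polymerase, fell by 2.19 in *top1Δtop2ts*, 0.97 in *top1Δ* and 1.21 in *top2ts* on the log2 scale, with a departure of -0.02 (95% interval -0.59 to 0.56). *VTC1* of the same complex had a departure of 0.09 (-0.37 to 0.54) and the alkaline phosphatase *PHO8* one of 0.08 (-0.45 to 0.61), neither of which passed. Over the whole list 16 genes fell in *top1Δtop2ts*, 11 in *top1Δ* and 12 in *top2ts*, beside 66%, 13% and 6.92% of all genes. Above additivity were 5 (29.4%) and below it 3 (17.6%), beside 8.24% and 13.4% of all genes. The 3 below became 0 without replicate 1, 0 without replicate 2 and 1 without the block, where 4 were above.

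Of 18 genes for storage carbohydrates 6 were saturated falls, a class of 1.36% of all genes. Of these genes for glycogen and trehalose 7 (38.9%) were above additivity and 1 (5.56%) below, beside 8.24% and 13.4% of all genes. The median departure was 0.57. The count above was 5 without replicate 2, 5 without the block, 4 without *top1Δtop2ts* replicate 3 and 2 without replicate 3. *GPH1*, which breaks down glycogen, gave 809, 761 and 699 in *top1Δtop2ts*, 685, 848 and 609 in *top1Δ* and 1229, 600.1 and 769 in *top2ts*, against 2841, 2053 and 2287 in wild-type. All mutant arrays lay below wild-type and the 3 mutants overlapped, and the departure was 1.61 ± 0.29 (limma adjusted p = 0.00074). *GSY1*, a glycogen synthase, departed by 1.42 ± 0.30, and its level in *top1Δtop2ts* differed from *top1Δ* by -0.37 (-0.81 to 0.07) and from *top2ts* by -0.15 (-0.59 to 0.29). *GLG1*, the primer protein of glycogen synthesis, fell by 1.14 on the log2 scale in *top1Δ*, whereas its change of -0.23 in *top2ts* did not pass, and in *top1Δtop2ts* it was higher than in *top1Δ* by 0.76 (0.43 to 1.09). *SEO1*, a putative permease, *ADH2*, the alcohol dehydrogenase for growth on ethanol, and *INO1*, the first enzyme of inositol synthesis, were saturated falls at 2.06 ± 0.27, 1.55 ± 0.26 and 1.54 ± 0.24. *INO1* was higher in *top1Δtop2ts* than in *top1Δ* by 0.83 (0.48 to 1.18).

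Methionine and sugar uptake genes gave mixed pictures. Of 29 genes for sulfate assimilation and methionine 25 fell in *top1Δtop2ts*, 18 in *top1Δ* and 16 in *top2ts*. Above additivity were 7 (24.1%) and below it 3 (10.3%), beside 8.24% and 13.4% of all genes. Saturated falls were 4, beside 1.36% of all genes. *MHT1*, which makes methionine from homocysteine, gave 575, 685 and 421 in *top1Δtop2ts*, 448, 690.0 and 555 in *top1Δ* and 400.1, 623 and 301 in *top2ts*, against 1063, 1478 and 1422 in wild-type, a departure of 1.62 ± 0.28 (limma adjusted p = 0.000562). *MET28*, a transcription factor of the pathway, was restored at 1.30 ± 0.23, with means of 368 in *top1Δtop2ts* and 351 in wild-type. *HXT7*, a high-affinity hexose transporter whose probes may also read the near-identical *HXT6*, gave 5365, 4183 and 3919 in *top1Δtop2ts*, 3996, 4778 and 4292 in *top1Δ* and 1300.2, 672 and 624 in *top2ts*, against 8363, 8854 and 7449.5 in wild-type. Its lowest level was in *top2ts*, below every other array, and in *top1Δtop2ts* it was higher than in *top2ts* by 2.44 (2.01 to 2.88). Of the 12 genes that the study took up for induction experiments 8 departed above additivity and 0 below, 4 as saturated falls, but the study chose them with these arrays known, and they are no independent evidence of a direction.

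**Figure D4:**
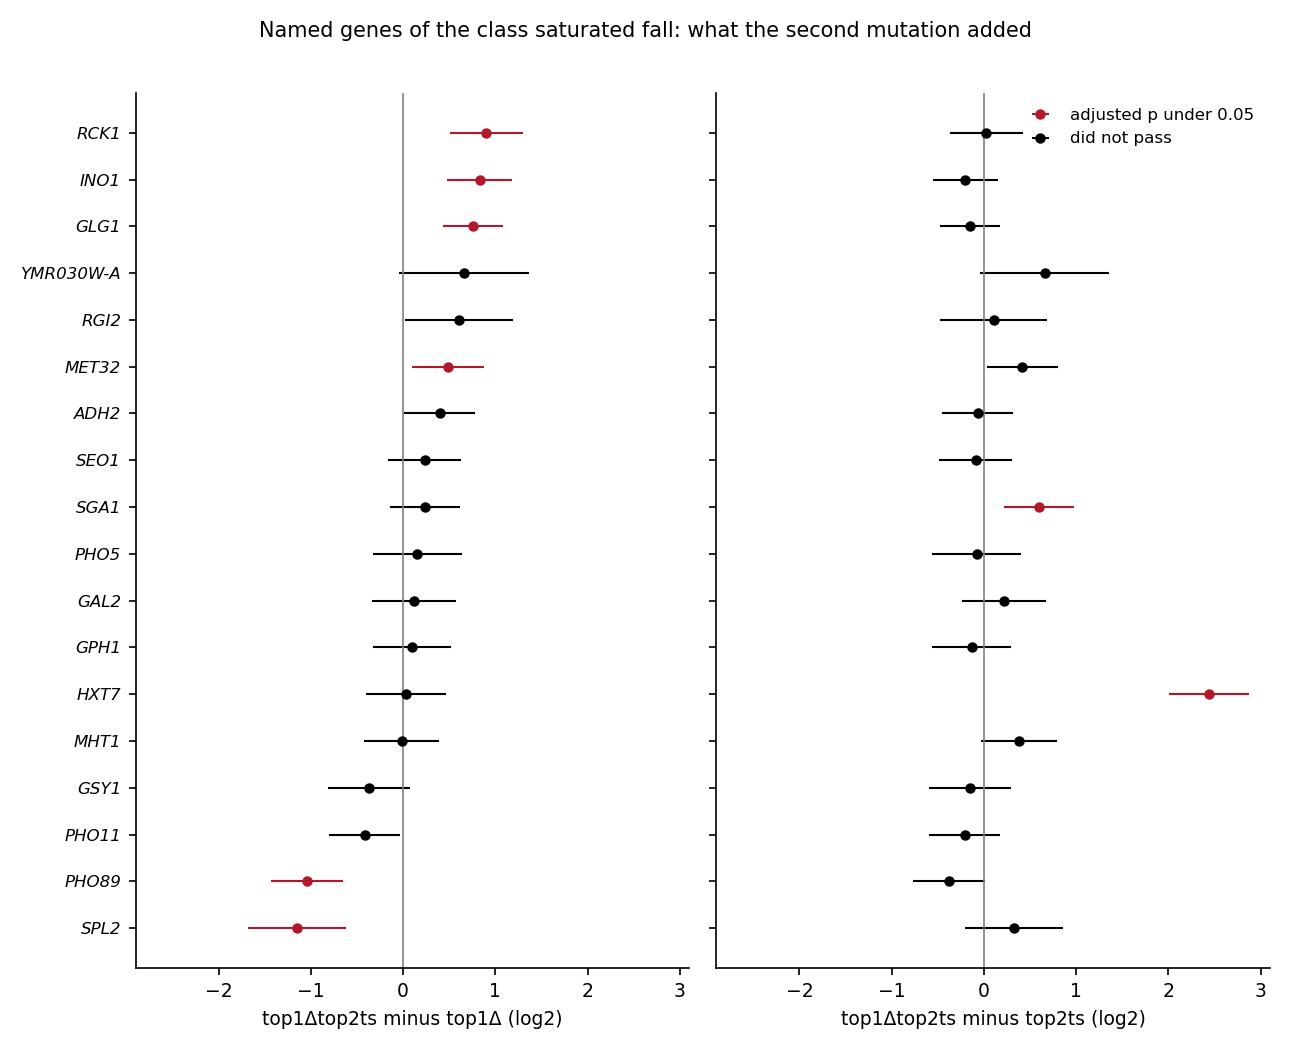
Difference of *top1Δtop2ts* from *top1Δ* (left) and from *top2ts* (right) on the log2 scale for 18 saturated falls, with 95% intervals, red where the difference passed the test and black where it did not. *PHO5* lies at 0.15 against *top1Δ* and at -0.08 against *top2ts*, and *HXT7* at 2.44 against *top2ts*.

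The restored genes had changed in a single mutant and did not pass the test against wild-type in the double mutant. This class, 3.21% of all genes, was frequent among glucose-repressed genes, which serve growth on other carbon sources. Of 26 measured 20 (76.9%) departed above additivity and 0 below, beside 8.24% and 13.4% of all genes. The median was 1.30, and 11 were restored, 5 synergistic rises and 3 saturated falls. The count above was 20 without replicate 2, 20 without trp and 18 without the block. Of these 26 genes 7 fell and 5 rose in *top1Δtop2ts*, against 18 that fell in *top1Δ* and 9 in *top2ts*. *SUC2*, the invertase, gave 2307, 2623 and 2605 in *top1Δtop2ts*, 975, 1304 and 1026 in *top1Δ* and 965, 890.3 and 751 in *top2ts*, against 2106, 1781 and 1934 in wild-type. Both single mutants lay below wild-type, by 0.83 in *top1Δ* and 1.16 in *top2ts* on the log2 scale, while *top1Δtop2ts* differed from wild-type by 0.37 (0.02 to 0.73), which did not pass after adjustment, and departed by 2.36 ± 0.24 (limma adjusted p = 2.97e-06). *HXK1*, a hexokinase, and *PCK1*, the first committed enzyme of gluconeogenesis, departed by 1.55 ± 0.24 and 1.62 ± 0.31. *MLS1* and *ICL1* of the glyoxylate cycle departed by 2.22 ± 0.39 and 1.25 ± 0.28, and both had fallen in *top1Δ*, while their changes of -0.42 and -0.18 in *top2ts* did not pass. *FBP1*, another enzyme of gluconeogenesis, fell by 0.92 in each single mutant and rose by 0.46 in the double mutant. Outside this list *MET2*, an enzyme of methionine synthesis, was restored at 2.27 ± 0.31. The number of restored genes was 94 without wild-type replicate 1 and 111 without wild-type replicate 3.

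Pheromone response genes showed the opposite direction. They are induced by α-factor, which all cells had received. Of 23 measured 4 rose in *top1Δtop2ts*, 0 in *top1Δ* and 15 in *top2ts*, beside 3.87%, 0.385% and 0.973% of all genes. Below additivity were 9 (39.1%) and above it 1 (4.35%), beside 13.4% and 8.24% of all genes. The median was -0.63, and 6 were restored. The count below was 7 without replicate 2, 5 without replicate 3 and 4 without the block. *PRM6*, a pheromone-regulated membrane protein, gave 1258, 1735 and 930.3 in *top1Δtop2ts*, 1045, 1651 and 1177 in *top1Δ* and 5208, 5903 and 3081 in *top2ts*, against 1267, 2043 and 1255 in wild-type. Only the *top2ts* arrays stood apart, above the other 9, and the departure was -1.62 ± 0.25 (limma adjusted p = 0.000242). *FUS2* and *KAR4*, which act in the fusion of mating cells and of their nuclei, departed by -1.18 ± 0.27 and -0.77 ± 0.25, and *KAR4* passed in 6 of 15 fits with arrays left out. *FIG1* and *PRM3*, with roles in mating too, rose in *top2ts* by 0.67 and 0.94 and fell in *top1Δtop2ts* by 0.95 and 0.42, all against wild-type. Outside the list *GIS3*, of unknown function, averaged 71.6 in *top1Δtop2ts*, 93.2 in *top1Δ* and 1669.9 in *top2ts*, against 98.6 in wild-type, with 1747, 1798 and 1482 on the 3 *top2ts* arrays. It rose by 4.08 on the log2 scale in *top2ts*, while *top1Δtop2ts* differed from wild-type by -0.46 (-1.23 to 0.30). The 3 saturated rises were *CIK1*, a partner of a kinesin in nuclear fusion, with a departure of -1.19 ± 0.25, *PCL2*, another G1 cyclin of Pho85p, and *YLR154C-H*, whose *top1Δtop2ts* arrays gave 3892, 59.6 and 3983 and whose departure had an SE of 1.44. *CIK1* and *PCL2* rose in *top2ts* by 1.67 and 2.06, and in *top1Δtop2ts* by 0.51 and 0.65, on the log2 scale.

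Several functions gave few departures. The proteasome, which degrades proteins, had 0 of 34 subunit genes past the test in either direction, with departures from -0.40 to 0.61, though 9 were above additivity when arrays were given equal medians. Of 66 mitochondrial ribosomal proteins 1 was above and 0 below, with a median of 0.16, though 19 were above with arrays of equal median, and the replicate medians were 0.31, -0.28 and 0.54. Of 55 genes of Mediator and the general transcription factors 3 were below, or 5.45%, beside 13.4% of all genes. This count was 8 without *top1Δ* replicate 1 and 1 without replicate 2. *TOP2* itself departed by -0.23 ± 0.27 (95% interval -0.79 to 0.34) and *ACT1* for actin by -0.12 ± 0.24 (-0.63 to 0.38), and neither passed. These intervals show the size of departure that 3 arrays per strain could not detect, with a median SE of 0.25 over all genes.

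The direction of departure went with the level of signal. In 5 equal groups of genes ordered by mean signal, the median departure was 0.20, -0.08, -0.15, -0.31 and -0.42, the share above additivity 23.1%, 8.17%, 5.42%, 2.84% and 1.65% and the share below it 7.43%, 9.91%, 10.5%, 16.2% and 23.0%, from the dimmest group to the brightest. Signals of different probe sets are not amounts, so this order is only an approximate one of abundance. Groups by coding length showed no such order, with medians of -0.19, -0.25, -0.22, -0.14 and -0.18 from short to long. The part of signal level in the values of the lists was not tested.

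**Figure D5:**
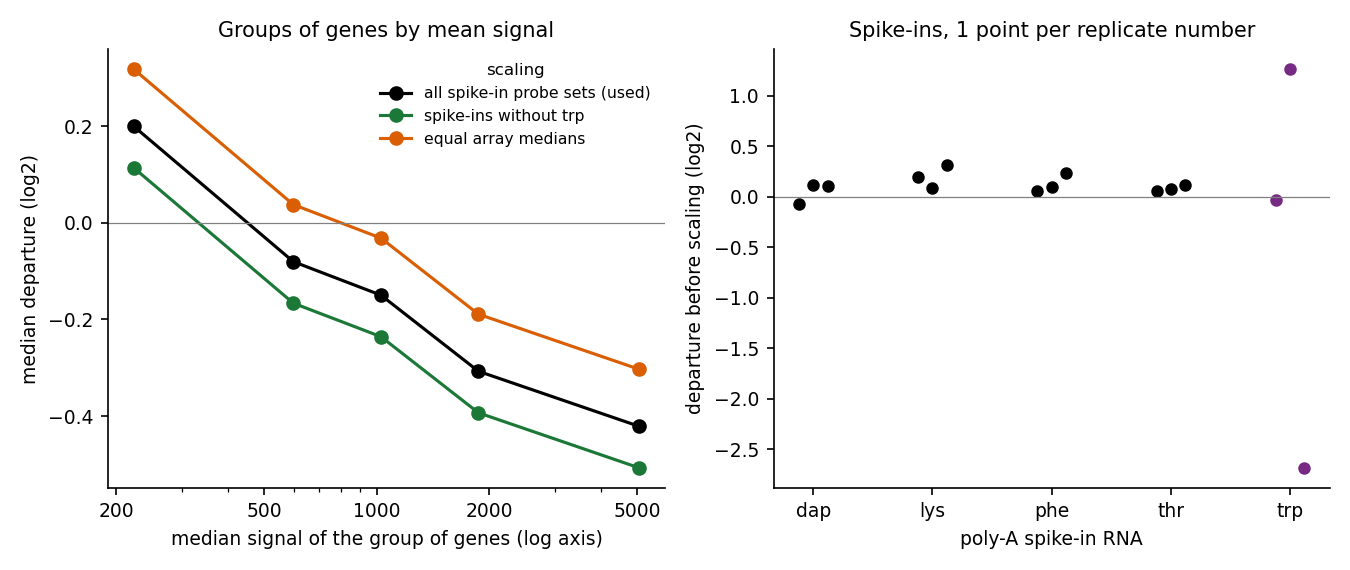
Left, median departure (log2) of 5 equal groups of genes by mean signal under 3 scalings of the arrays. Right, departures of the spike-in RNAs in each replicate number, which ran from -0.07 to 0.32 for dap, lys, phe and thr and from -2.68 to 1.26 for trp.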

How the data were processed

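RNA of 3 arrays from each of 4 strains was measured on Affymetrix Yeast Genome 2.0 arrays. The deposited values were linear intensity values that the authors made with MAS5 in the GeneChip Operating software, and the paper describes an external normalization to the spike-ins. Since the deposited arrays did not share a spike-in level, each was scaled so that the mean log2 signal of its 42 spike-in probe sets was equal. Of 10928 probe sets 5498 were paired with 1 gene, the log2 values of a gene's probe sets were averaged, and 5449 genes were kept with no filter on low signal. The 4 values of 0 were set to 0.1. limma 3.58.1 (R 4.3.3) was fitted to all 12 arrays with strain and replicate number, with 6 residual degrees of freedom, and two-sided p-values were Benjamini-Hochberg adjusted, with a threshold of 0.05. Strain means are geometric, intervals are 95% intervals for 1 gene, and the number of arrays limits the precision. The Tag level of 17.6 is the 95th percentile of the 17 Tag control probe sets. Correlations between arrays ran from 0.904 to 0.992, with 0 identical pairs. Only the fit of the departure was tested on simulated data, with known departures added to scaled values. Summaries and figures were made in Python 3.11.15 with numpy 2.4.6, pandas 2.3.3 and matplotlib 3.10.9.

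The comparison, the gene lists and the rule for named genes were chosen with earlier results of these data known. Named were in each class the 8 genes with the largest departure that were above the Tag level in all strains and of 1 sign in all replicates, of each list the up to 4 members with the largest departures that passed or else the 2 brightest in wild-type, *TOP1*, *TOP2* and genes the paper took up. *CLN1*, *CLN2*, *MCD1*, *HTB1*, *HHF1*, *HHO1*, *HHT1*, *HTZ1*, *HSP12*, *PHO84*, *PCK1*, *ICL1*, *FUS2* and *KAR4* were named after their values had been seen. Alternatives were the deposited scale, equal medians, quantile normalization, the median of the spike-ins, no block, an intensity trend, a filter on the Tag level, each array left out and all arrays of a replicate number left out. Spike-ins without trp, alone and with no block, were added after the data had been seen. Promoter sequences were not used here.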

Additional observations from a re-analysis of the deposited data

Results flagged for a closer look

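Each departure is itself a test of whether the effect of losing 1 enzyme differs with the state of the other, and the values here were singled out because that test passed. It did so for 1180 genes, and for 93 genes the loss of Top1p changed the level in opposite directions with and without active Top2p. Among the named genes of this second kind that were above the Tag level in all strains, the largest departures were those of *PGU1* at 5.56, *POT1* at 4.02, *HPF1* at 3.68, the uncharacterized *YNL034W* at 3.43, *HXT7* at 3.36, *ECM11* at 3.23, *YNL018C* at 3.14, *GAS2* at -3.05, *YLR342W-A* at -3.01 and *YMR206W* at 2.98, all on the log2 scale. Groups of 3 arrays are too small for a test of single outlying arrays, and none was run.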

How the results depend on the processing

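None of the 177 named departures that passed changed its sign under the alternatives run, but the split did. Without replicate 2 there were 441 genes above and 209 below. Over the scalings 10 of 191 named departures, none past the threshold, and the medians of 13 of 45 lists changed sign. Genes above additivity numbered 882 with equal medians, 859 with quantile normalization and 247 without trp and block, and 249 to 495 with arrays left out. Genes below numbered 1317 with the median of the spike-ins, 422 with no replicate block, 1103 without trp, 332 without trp and block, and 209 to 1087 with arrays left out. Synergistic falls were 1273 with the median of the spike-ins, 399 with no block, 1060 without trp, 317 without trp and block, and 190 to 1034 with arrays left out. Synergistic rises were 583 with equal medians, 604 with quantiles, 84 without trp and block, and 97 to 149 with arrays left out. Saturated falls were 49 with equal medians and 49 with quantiles, 32 without trp and block, and 36 to 108 with arrays left out, with 49 without wild-type replicate 1. Restored genes were 264 with equal medians, 86 without trp and block, and 90 to 208 with arrays left out. The causes of these shifts were not tested. The median departure ran from -0.33 to -0.02 and the summed signal from 75.1% to 87.8% of expectation with arrays left out, and quantile normalization sets the summed signal to 100% by construction. The median departure was -0.08 with equal medians, -0.02 with quantiles, -0.35 with the median of the spike-ins and -0.28 without trp, so that directions of weak departures are relative to these shifts.

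All 792 genes that passed with no block also passed with it. The replicate numbers were used as a block although among the 18 pairs of arrays with a shared number only 10 correlated above 0.1 in how they deviated from their strain means (range -0.03 to 0.44), and 10 of 12 arrays matched best with their own number, which is a hint from the data and not the design. Of 177 named departures that passed, 106 did so in each of 23 other settings, 21 were lost with no block and 16 with quantile normalization. The setting without trp and block is not among the 23, and named genes were not followed in it. The motif search in promoters was not run.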

Other observations

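Genes of meiosis and sporulation, a programme that haploid cells in rich medium do not run, departed upward in part. Of 44 measured 14 (31.8%) were above additivity and 3 below, with a median of 0.33, beside 8.24% and 13.4% of all genes. The count above was 8 without replicate 1 and 9 without replicate 3, and that below 0 without replicate 2. *ECM11*, a meiotic chromosome protein, gave 252, 159 and 295 in *top1Δtop2ts*, 48.2, 27.1 and 28.1 in *top1Δ* and 52.3, 34.4 and 44.9 in *top2ts*, against 67.5, 45.5 and 67.8 in wild-type. *SPO74*, of the spindle pole body of spore formation, averaged 105 in *top1Δtop2ts*, 37.8 in *top1Δ* and 42.2 in *top2ts*, against 69.2 in wild-type and departed by 2.18 ± 0.25. Both fell in *top1Δ* and rose in the double mutant. The iron regulon, which takes up iron when it is scarce, had 10 of 24 genes above and 2 below, with 4 above without replicate 1, 4 without replicate 3 and 6 without wild-type replicate 1, and 0 below without replicate 2. The 10 include *FRE5*, which was at or under the Tag level in all strains. *FRE4*, a ferric reductase, departed by 2.15 ± 0.25, *SIT1*, a siderophore transporter, by 1.96 ± 0.35 and *FIT2*, a mannoprotein that holds siderophores, by 1.65 ± 0.28, all as synergistic rises.

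Of 32 genes of DNA damage and repair 5 (15.6%) were above additivity and 1 (3.1%), *RNR1*, below, beside 8.24% and 13.4% of all genes. The count above was 3 without replicate 1 and 2 without replicate 3. *HUG1*, an inhibitor of ribonucleotide reductase made after damage, gave 1054, 539 and 938 in *top1Δtop2ts*, 226, 127 and 161 in *top1Δ* and 546, 249 and 264 in *top2ts*, against 550.5, 239.5 and 369 in wild-type and departed by 2.43 ± 0.25. *DDC1*, part of the checkpoint clamp, departed by 1.48 ± 0.25. Of 47 subunits of chromatin remodelling complexes 8 were below and 3 above, with 1 below without replicate 2 and 4 without the block. *SWI1* of the SWI/SNF complex averaged 363 in *top1Δtop2ts*, 1361 in *top1Δ* and 1244 in *top2ts*, against 1427 in wild-type and departed by -1.71 ± 0.27. Of 12 daughter cell genes of the factor Ace2p 5 were above and 1 below, among them *DSE2*, a glucanase of cell separation, with 466, 1124 and 603 in *top1Δtop2ts* and 115, 135 and 90.1 in wild-type. Among 30 genes of nitrogen use the permeases parted. *PUT4* for proline departed by 3.66 ± 0.31 and the branched-chain amino acid permease *BAP3* by -1.44 ± 0.26.

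By gene order, the outermost 5 genes of chromosome ends, 98 in all, had a median departure of 0.28, with 27 above additivity (27.6%) and 12 below (12.2%). The next 428 genes, at places 6 to 20, had a median of -0.12 with 62 above and 59 below, and the other 4920 genes one of -0.21 with 358 above and 660 below. Subtelomeric genes belong to families with near-identical copies, and the part of signal level in this order was not tested.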
